A study of Mus musculus with 8 samples.

Results

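The genes described here are the glucocorticoid receptor gene Nr3c1, the mineralocorticoid receptor gene Nr3c2, the corticotropin-releasing hormone (CRH) receptor genes Crhr1 and Crhr2, and 6 genes that glucocorticoids are known to induce, namely Fkbp5, Sgk1, Tsc22d3, Errfi1, Mt1 and Mt2. They were chosen by name, with earlier results of these data known. Each was followed through every probe set that carries it as its only gene symbol in the platform annotation. This gave 18 probe sets of the 22626 tested, for 9 of the 10 genes, and no filter on low values was applied to any of them. Nr3c1 and Tsc22d3 had 3 probe sets each, Crhr1, Crhr2, Fkbp5, Errfi1 and Mt1 had 2 each, and Sgk1 and Mt2 had 1 each. Nr3c2 was not analysed here, because it was the only symbol of none of the probe sets. As genes, this is 9 of 12393 with probe sets of their own.

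The RNA came from whole brains of 3-month-old males on a C57/B6 background. The knockout mice, called BSKO, lack the protein deacetylase SIRT1 in the brain, and their wild-type littermates, called WT, served as the controls. Each genotype had 4 biological replicates with 1 single-channel Affymetrix Mouse430A_2 array each. The labels give neither the driver nor the brain cell types of the deletion, which limits what a change in whole-brain RNA can be assigned to.

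Stress releases CRH in the hypothalamus, which acts on pituitary CRHR1 and so raises adrenal glucocorticoid secretion. In brain cells the hormone binds the mineralocorticoid and glucocorticoid receptors, which are held ready by heat shock chaperones, move to the nucleus and bind paired hexamers in DNA called glucocorticoid response elements. The induced genes act back on the response: the FKBP5 co-chaperone lowers the hormone affinity of the receptor, TSC22D3 (also called GILZ) restrains inflammatory transcription factors, SGK1 is a kinase that regulates ion channels and transporters, and ERRFI1 inhibits the EGF receptor. Metallothioneins bind zinc and copper and are induced by metals as well as by glucocorticoids.

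Of the measured genes, Tsc22d3 was the one with called probe sets, and the DNA upstream of 1 of its 3 start sites and of 1 of 6 for Sgk1 is shown, because these windows hold letters of the receptor's element. The sequences are from RefSeq, build GRCm38.p6, each 250 bases long and ending just before the annotated start site, read in the direction of the gene. The full element searched for is the hexamer AGAACA, followed after 3 bases of any kind by its reverse complement, which reads TGTTCT. Capitals mark the full element in Sgk1 and a single hexamer in Tsc22d3. The first is chr10:21993640-21993889 on the plus strand, and the second is chrX:140600523-140600772 on the minus strand.
Sgk1: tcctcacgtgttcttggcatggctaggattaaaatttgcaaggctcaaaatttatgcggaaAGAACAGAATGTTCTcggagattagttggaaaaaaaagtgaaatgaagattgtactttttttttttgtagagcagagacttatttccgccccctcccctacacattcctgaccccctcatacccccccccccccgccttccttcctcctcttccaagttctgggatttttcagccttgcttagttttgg
Tsc22d3: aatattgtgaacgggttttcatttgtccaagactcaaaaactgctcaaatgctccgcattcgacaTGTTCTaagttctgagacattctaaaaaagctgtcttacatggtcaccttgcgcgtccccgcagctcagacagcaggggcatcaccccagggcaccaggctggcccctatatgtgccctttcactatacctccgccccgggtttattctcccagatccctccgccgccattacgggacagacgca

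The full element in Sgk1 lies 189 to 175 bases before this start site, and the window holds 3 hexamers, of which the full element supplies a pair. Searched on both strands, it occurs in 3 of 32851 windows of this length (0.00913%), and its hexamer, which the full element contains on each strand, in 16.1% of them. The Tsc22d3 hexamer lies 185 to 180 bases before its start. Windows of 9 of the 10 genes were searched, with 17 start sites and that of Nr3c1 not used here, of which 1 held the full element and 4 the hexamer. The windows for Nr3c2, Fkbp5, Errfi1, Crhr1, Crhr2, Mt1 and Mt2 held neither. A match is a description of these letters and not a measured binding site.

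The values are log2 values centred on the median of each probe set over the 8 arrays, so they show how arrays differ and give no level of expression. Whether whole-brain marker genes were present could therefore not be checked. In bulk tissue, fewer cells of a type and less RNA per cell cannot be told apart. The array of BSKO 2 stood apart: the SD of its values over all probe sets was 0.831, against 0.15 to 0.314 on the other arrays, and the beta-actin control read -2.44 for the 5' end minus the 3' end, where the others gave -0.104 to 0.489. BSKO 2 lay outside the range of the other 7 arrays for 14 of the 18 probe sets described here (77.8%) and for 75.2% of all probe sets. For this reason differences were computed from the full set of 8 and again leaving out BSKO 2.

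With 8 arrays none of the 18 probe sets passed an adjusted p of 0.05 (limma with Benjamini-Hochberg adjustment over all 22626), against a background of 0.0309% called, and 4 had an unadjusted p under 0.05, as did 10.8% of all probe sets. Without BSKO 2 the 2 that passed, both for Tsc22d3, fell, against a background of 1.63% called, or 1.14% called as lower. The median difference over the 18 was -0.11 with 8 arrays and -0.09 without BSKO 2, beside 0.02 and 0.01 over all probe sets. Differences below 0 numbered 11 and 12 of the 18, or 61.1% and 66.7%, beside 46.5% and 47.8% of all probe sets.

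Tsc22d3 was lower in BSKO brain on 2 of its 3 probe sets. On probe set 1420772_a_at the values were 0.20, 0.46, 0.46 and 0.35 on WT 1 to 4 and -0.20, -0.54, -0.58 and -0.39 on BSKO 1 to 4. All 4 BSKO arrays lay below all 4 WT arrays, and BSKO 2 lay between BSKO 3 and BSKO 4. The WT mean was 0.37 ± 0.12 (SD, n = 4) and the BSKO mean -0.43 ± 0.17, so BSKO brain was 1.74-fold lower (log2 difference -0.80 with SE 0.12), and this missed the threshold with 8 arrays (limma adjusted p = 0.0725). Without BSKO 2 it fell 1.69-fold (log2 difference -0.76, SE 0.11, adjusted p = 0.0237).

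Probe set 1425281_a_at gave 0.33, 0.33, 0.22 and 0.13 on WT 1 to 4 and -0.13, -0.33, -0.66 and -0.43 on BSKO 1 to 4. Again the genotypes did not overlap, and BSKO 1 was the closest to the WT arrays. The log2 difference was -0.64 (SE 0.13, limma adjusted p = 0.153) with 8 arrays and -0.66 (SE 0.13, adjusted p = 0.0489) without BSKO 2, just inside the threshold. The calls without BSKO 2 were lost on both probe sets when WT 1, WT 2, WT 3, WT 4, BSKO 3 or BSKO 4 was also left out. In those fits the differences of 1420772_a_at and 1425281_a_at stayed between -0.82 and -0.53, and with BSKO 1 left out as well both were called (adjusted p = 0.0171 for each).

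The third Tsc22d3 probe set, 1425557_x_at, did not show this. Its values were -0.13, 0.09, 0.07 and -0.06 on WT 1 to 4 and 0.00, 0.57, -0.16 and 0.00 on BSKO 1 to 4, so the genotypes overlapped. Its log2 difference came to 0.11 over the 8 arrays, and to -0.04 without BSKO 2 with a 95% confidence interval of -0.24 to 0.15 in the latter fit, which leaves out the differences seen on the other probe sets. The annotation pairs the probe sets 1420772_a_at, 1425281_a_at and 1425557_x_at with different transcript records of the gene, and an ID ending in _x_at marks a probe set that can cross-hybridise. As the mean of its 3 probe sets Tsc22d3 differed by -0.44 (limma adjusted p = 0.192 over all genes) with 8 arrays, and fell by 0.49 without BSKO 2 (adjusted p = 0.0453), where 2.15% of all genes were called.

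**Figure D1:**
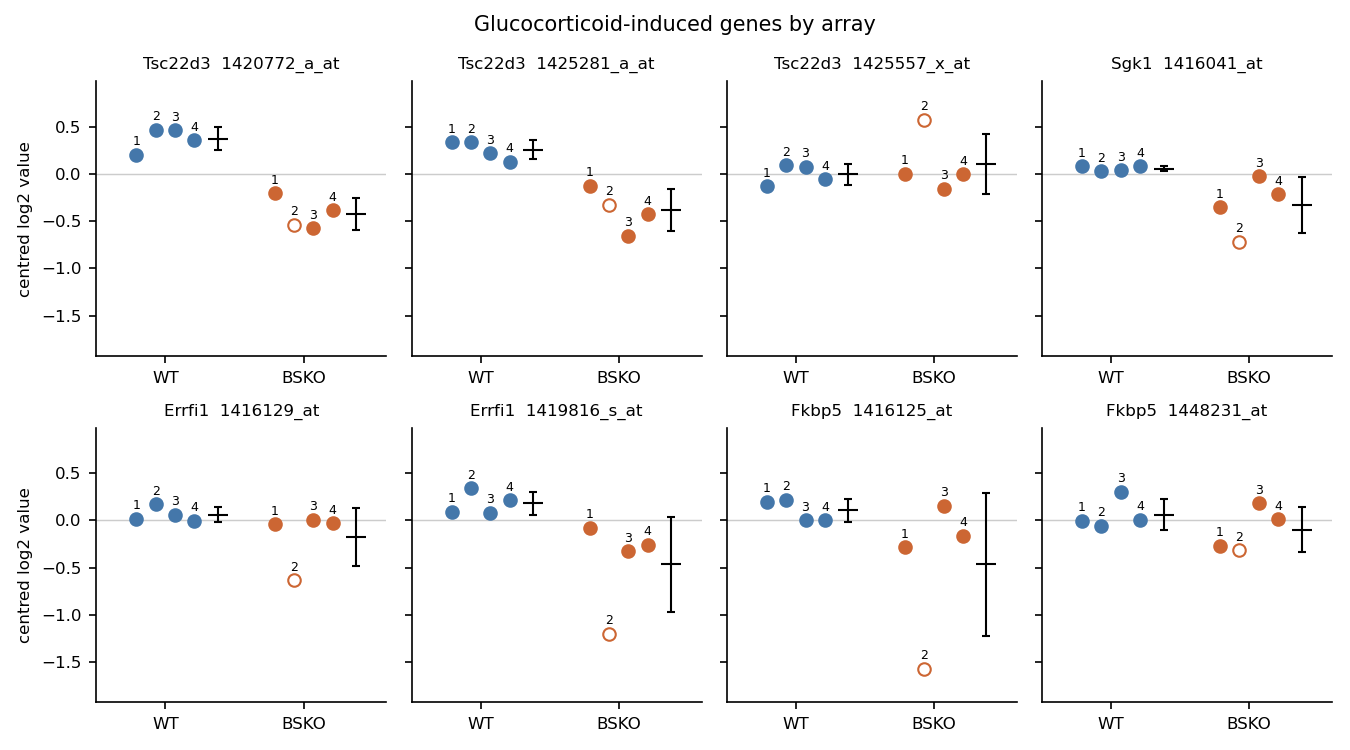
Centred log2 value (vertical axis) of each Tsc22d3, Sgk1, Errfi1 and Fkbp5 probe set on the 4 WT (blue) and 4 BSKO (orange) arrays, numbered by replicate, with BSKO 2 as an open circle and the mean ± SD beside each group. The genotypes do not overlap for 1420772_a_at and 1425281_a_at of Tsc22d3, 1416041_at of Sgk1 and 1419816_s_at of Errfi1, and BSKO 2 is the lowest array in all panels for Sgk1, Errfi1 and Fkbp5.

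Sgk1, on its single probe set 1416041_at, had 0.08, 0.02, 0.04 and 0.08 on WT 1 to 4 and -0.35, -0.72, -0.02 and -0.22 on BSKO 1 to 4. All BSKO arrays lay below all WT arrays, with BSKO 3 close to the lowest WT array. The log2 difference was -0.38 (SE 0.15, limma adjusted p = 0.423) with 8 arrays and -0.25 (SE 0.09, adjusted p = 0.167) without BSKO 2, so it did not pass in either fit.

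Errfi1 was measured by a pair of probe sets that differed in size. On 1419816_s_at the WT arrays had 0.09, 0.34, 0.08 and 0.21 and the BSKO arrays -0.08, -1.20, -0.33 and -0.26, again without overlap. The log2 difference was -0.65 (SE 0.23, limma adjusted p = 0.387) with 8 arrays and -0.40 (SE 0.09, adjusted p = 0.0811) without BSKO 2. On 1416129_at the arrays other than BSKO 2 spanned -0.04 to 0.17 with overlap, BSKO 2 was at -0.63, and the log2 difference went from -0.24 with 8 arrays to -0.09 when that array was dropped (95% confidence interval -0.24 to 0.07).

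Fkbp5 had no separation of the genotypes. Probe set 1416125_at gave 0.20, 0.22, 0.00 and 0.00 on WT 1 to 4 and -0.29, -1.57, 0.16 and -0.16 on BSKO 1 to 4. BSKO 3 lay among the WT arrays and BSKO 2 far below every other array. The log2 difference of -0.57 over the 8 arrays shrank to -0.20 without BSKO 2 (SE 0.12, limma adjusted p = 0.379). On 1448231_at the arrays ranged from -0.06 to 0.30 in WT and from -0.32 to 0.18 in BSKO, and the difference was -0.16 with 8 arrays and, leaving out BSKO 2, -0.09 with a 95% confidence interval of -0.38 to 0.21.

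For the receptor gene Nr3c1 the picture turned on BSKO 2. On probe set 1421866_at the WT arrays had -0.04, -0.01, -0.03 and 0.01, and the BSKO arrays 0.28, -1.24, 0.72 and 0.24. Thus BSKO 1, BSKO 3 and BSKO 4 lay above every WT array and BSKO 2 below all of them. The log2 difference was 0.01 (SE 0.37) with 8 arrays and 0.43 (SE 0.12, limma adjusted p = 0.108) without BSKO 2, so it did not pass in either fit.

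Probe set 1421867_at of Nr3c1 had the same order of genotypes with smaller values, at -0.03, -0.06, 0.03 and -0.15 in WT and 0.04, -0.85, 0.39 and 0.05 in BSKO. Without BSKO 2 the BSKO arrays lay above the WT arrays, BSKO 1 by a narrow margin, and the log2 difference was 0.21 (SE 0.10, limma adjusted p = 0.289), against -0.04 over all 8, so its sign turned with that array. The third, 1460303_at, ranged from -0.13 to 0.01 in WT and from -0.08 to 0.14 in BSKO, with BSKO 2 as the highest array. Its log2 difference was 0.08 over all 8 and 0.05 without BSKO 2 (95% confidence interval -0.12 to 0.21).

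The CRH receptor genes did not separate the genotypes on any probe set. For Crhr1, 1418810_at ranged from 0.00 to 0.15 in WT and from -0.59 on BSKO 2 to 0.36 on BSKO 4, with log2 differences of -0.20 with 8 arrays and -0.06 without BSKO 2 (95% confidence interval -0.39 to 0.28). On 1427782_a_at they were -0.19 and -0.11. For Crhr2, the receptor preferred by urocortins, 1422012_at ranged from -0.29 to 0.12 in WT and from -0.48 on BSKO 4 to 0.68 on BSKO 2, and 1450462_at from -0.39 on WT 1 to 0.01 in WT and from -0.06 to 0.09 in BSKO. The Crhr2 log2 differences were 0.24 and 0.11 over all 8, and 0.07 and 0.11 without BSKO 2, with 95% confidence intervals of -0.41 to 0.54 and -0.14 to 0.36.

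**Figure D2:**
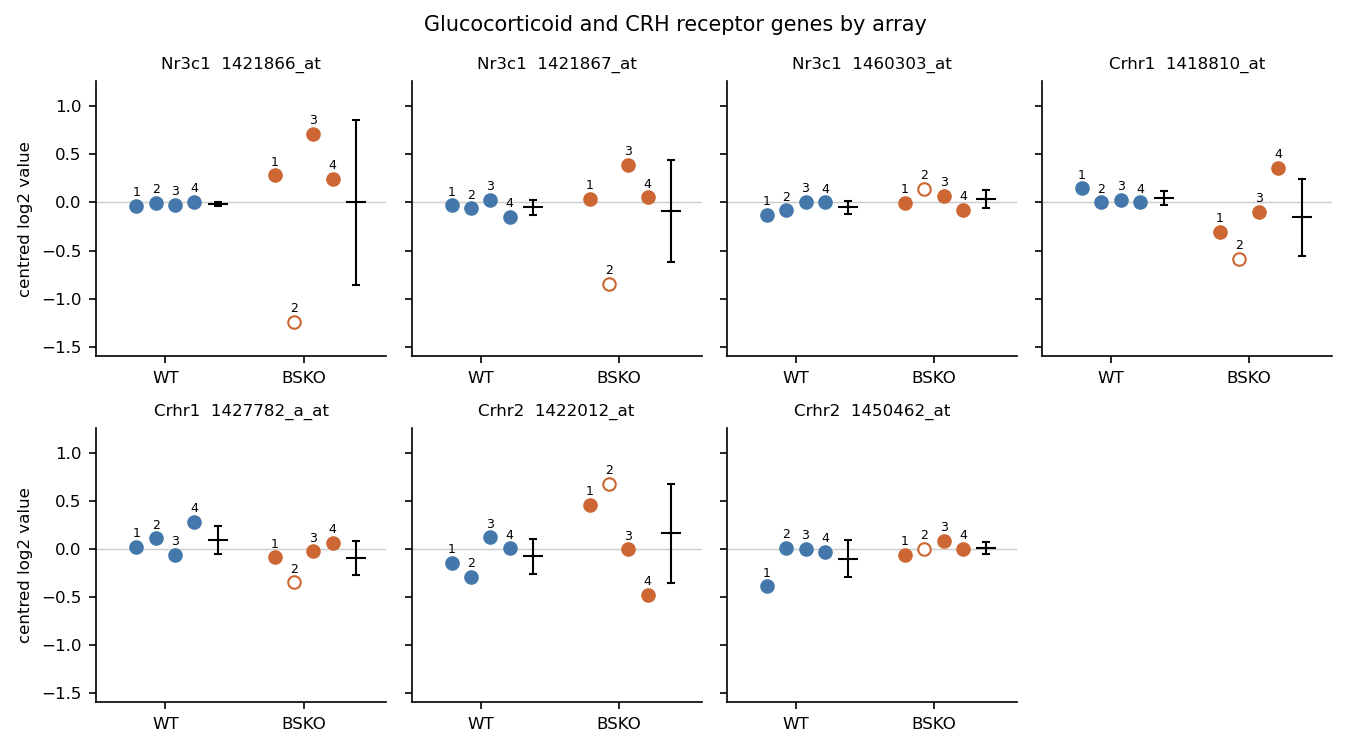
Centred log2 value (vertical axis) of each Nr3c1, Crhr1 and Crhr2 probe set on the 4 WT (blue) and 4 BSKO (orange) arrays, numbered by replicate, with BSKO 2 as an open circle and the mean ± SD beside each group. On 1421866_at of Nr3c1, BSKO 2 lies at -1.24 and the other 3 BSKO arrays between 0.24 and 0.72, above every WT array.

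The metallothionein genes Mt1 and Mt2 overlapped between genotypes on all 3 of their probe sets. Mt2 on 1428942_at gave -0.03, 0.03, -0.16 and -0.28 on WT 1 to 4 and -0.18, 1.42, 0.14 and 0.05 on BSKO 1 to 4. BSKO 2 alone stood far above the rest, and the log2 difference went from 0.47 (SE 0.32) with 8 arrays to 0.11 (SE 0.11, limma adjusted p = 0.597) without it.

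The Mt1 probe sets differed between themselves. On 1451612_at BSKO 2 was the highest array at 0.60 and BSKO 3 the lowest at -0.33, and the differences were 0.05 with 8 arrays and -0.13 without BSKO 2. On 1422557_s_at BSKO 3 stood alone at -0.83 and BSKO 2 was at -0.01, and the differences were -0.07 and -0.12. The 95% confidence intervals without BSKO 2 ran from -0.47 to 0.22 and from -0.62 to 0.38.

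**Figure D3:**
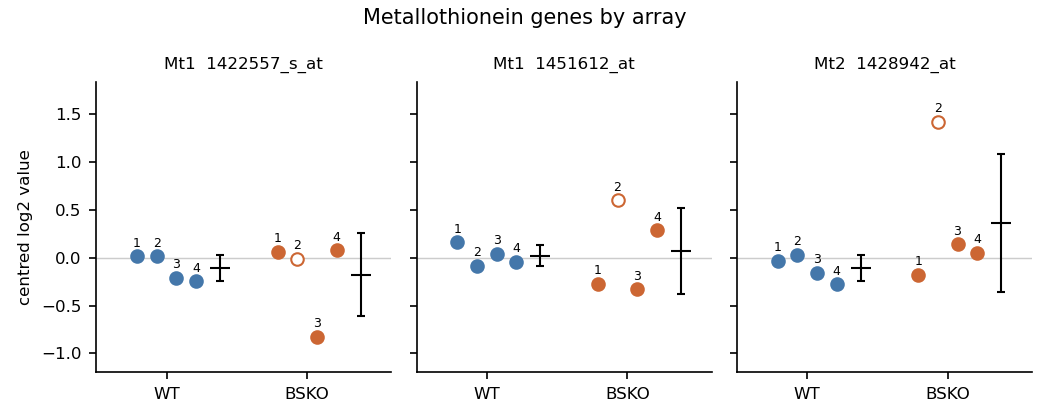
Centred log2 value (vertical axis) of the Mt1 and Mt2 probe sets on the 4 WT (blue) and 4 BSKO (orange) arrays, numbered by replicate, with BSKO 2 as an open circle and the mean ± SD beside each group. BSKO 2 is at 1.42 for Mt2 and BSKO 3 at -0.83 for 1422557_s_at of Mt1.

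**Figure D4:**
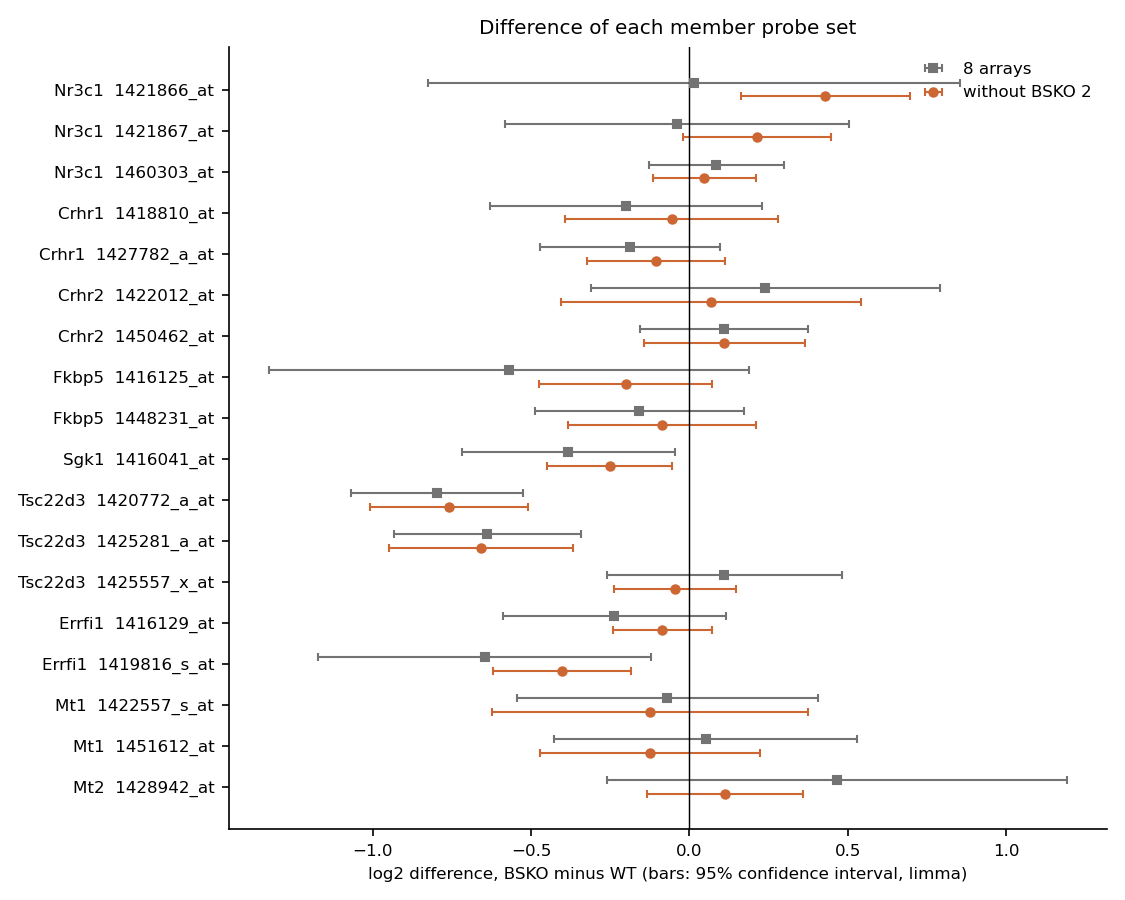
Log2 difference, BSKO minus WT (horizontal axis), of each of the 18 probe sets with its 95% confidence interval from limma, for all 8 arrays (grey squares) and without BSKO 2 (orange circles). Tsc22d3 probe sets 1420772_a_at and 1425281_a_at lie between -0.80 and -0.64 in both fits, and Nr3c1 1421866_at goes from 0.01 to 0.43 when BSKO 2 is left out.

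Without overlap of the genotypes, 4 of the 18 probe sets were lower with 8 arrays (2 of Tsc22d3, 1 of Sgk1 and 1 of Errfi1) and none was higher, where 6.66% of all probe sets were lower in this way and 5.67% higher. Without BSKO 2 the same 4 were lower and 2, both of Nr3c1, were higher, where the backgrounds were 10.3% and 9.21%. In markers of brain regions WT 1 and WT 2 stood apart from WT 3 and WT 4 (medians of 6 striatal markers of -1.98 and -1.82 against 0.04 and -0.09). BSKO 1 and BSKO 2 stood apart from BSKO 3 and BSKO 4 in the same direction (0.10 and 0.00 against 1.13 and 1.12). For this reason differences were also taken within pairs of replicate numbers, with no test. The Tsc22d3 differences within replicates 1 and 2 and within replicates 3 and 4 were -0.71 and -0.89 on 1420772_a_at and -0.56 and -0.72 on 1425281_a_at. For Sgk1 these were -0.59 and -0.18. The sign differed between the pairs of numbers on 1421866_at (-0.46 and 0.49) and 1421867_at (-0.36 and 0.28) of Nr3c1, on 1418810_at of Crhr1 (-0.52 and 0.12) and on 1422012_at of Crhr2 (0.78 and -0.30), and also on 1460303_at of Nr3c1, 1425557_x_at of Tsc22d3 and both probe sets of Mt1. Values within replicates 1 and 2 include BSKO 2. With BSKO 1 alone against WT 1 and WT 2 they were 0.30 and 0.08 on 1421866_at and 1421867_at, -0.40 for Sgk1, -0.54 and -0.46 on 1420772_a_at and 1425281_a_at, -0.38 on 1418810_at and 0.67 on 1422012_at.

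By the root-mean-square difference over the 8 arrays, the genes most alike to Tsc22d3 on 1420772_a_at were Dck, a deoxyribonucleoside kinase gene (0.112), Ggact (0.124) and Cav2, a caveolin gene (0.126). To 1425281_a_at they were Spin4 (0.0879), Col13a1, which encodes a transmembrane collagen (0.0981), and Gsta4, a glutathione transferase gene (0.103). The pair of Tsc22d3 probe sets themselves differed by 0.160 in this measure. To Errfi1 on 1419816_s_at they were Uevld (0.0621), Pter (0.0823) and Gab1, an adaptor of receptor tyrosine kinases (0.0881). Being alike in this measure includes the value of BSKO 2, which was -1.09 for Uevld, -1.28 for Pter and -1.22 for Gab1.

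Other genes that glucocorticoids are known to induce mostly had differences below 0 without BSKO 2, each taken as the mean of its probe sets. Their list was chosen with earlier results of these data known, and the list as a whole was not tested. Of 25 measured of 28 listed, 3 fell (Cebpd, Bcl6 and Ddit4) and 1 rose (Per1) without BSKO 2, beside a background of 1.39% of genes called lower and 0.758% called higher. With 8 arrays none passed (limma adjusted p), where 0.0726% of all genes did, and 6 had an unadjusted p under 0.05, beside 12.2% of all genes. The median difference of the 25 was -0.09 with 8 arrays and -0.21 without BSKO 2, beside 0.03 and 0.01 over all genes, and 15 and 20 of them lay below 0, where 45.2% and 46.4% of all genes did.

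Cebpd, a transcription factor gene of the acute phase response, had 0.27, 0.43, 0.14 and -0.14 on WT 1 to 4 and -0.82, 1.03, -0.998 and -0.58 on BSKO 1 to 4. BSKO 2 was the highest array and the other BSKO arrays were the lowest. Its log2 difference was -0.52 (SE 0.41) with 8 arrays and -0.98 (SE 0.15, limma adjusted p = 0.0273) without BSKO 2.

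Bcl6, a transcriptional repressor gene, had 0.18, 0.18, -0.01 and 0.08 in WT and -0.58, -0.36, -0.26 and -0.52 in BSKO. Ddit4, which encodes an inhibitor of mTORC1 signalling, had 0.13, 0.27, 0.46 and 0.33 in WT and -0.21, -0.27, -0.13 and -0.16 in BSKO. For Bcl6 and Ddit4 alike the genotypes did not overlap with all 8 arrays. The log2 difference of Bcl6 was -0.54 (limma adjusted p = 0.113) with 8 arrays and -0.56 (adjusted p = 0.0308) without BSKO 2. That of Ddit4 was -0.49 (adjusted p = 0.118) and -0.47 (adjusted p = 0.0381).

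Per1, a circadian period gene that is also induced by glucocorticoids, moved the opposite way. It had -0.08, -0.16, -0.18 and -0.22 in WT and 0.28, 0.17, 0.20 and 0.08 in BSKO, and all BSKO arrays lay above all WT arrays. Its log2 difference was 0.35 in both fits (SE 0.09 with 8 arrays and 0.07 without BSKO 2, limma adjusted p = 0.192 and 0.0497). Per1 has a single probe set, which was not called in the fit of all probe sets without BSKO 2 (adjusted p = 0.0619), whereas Ddit4 (1 of 1), Bcl6 (1 of 2) and Cebpd (2 of 2) had called probe sets there.

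**Figure D5:**
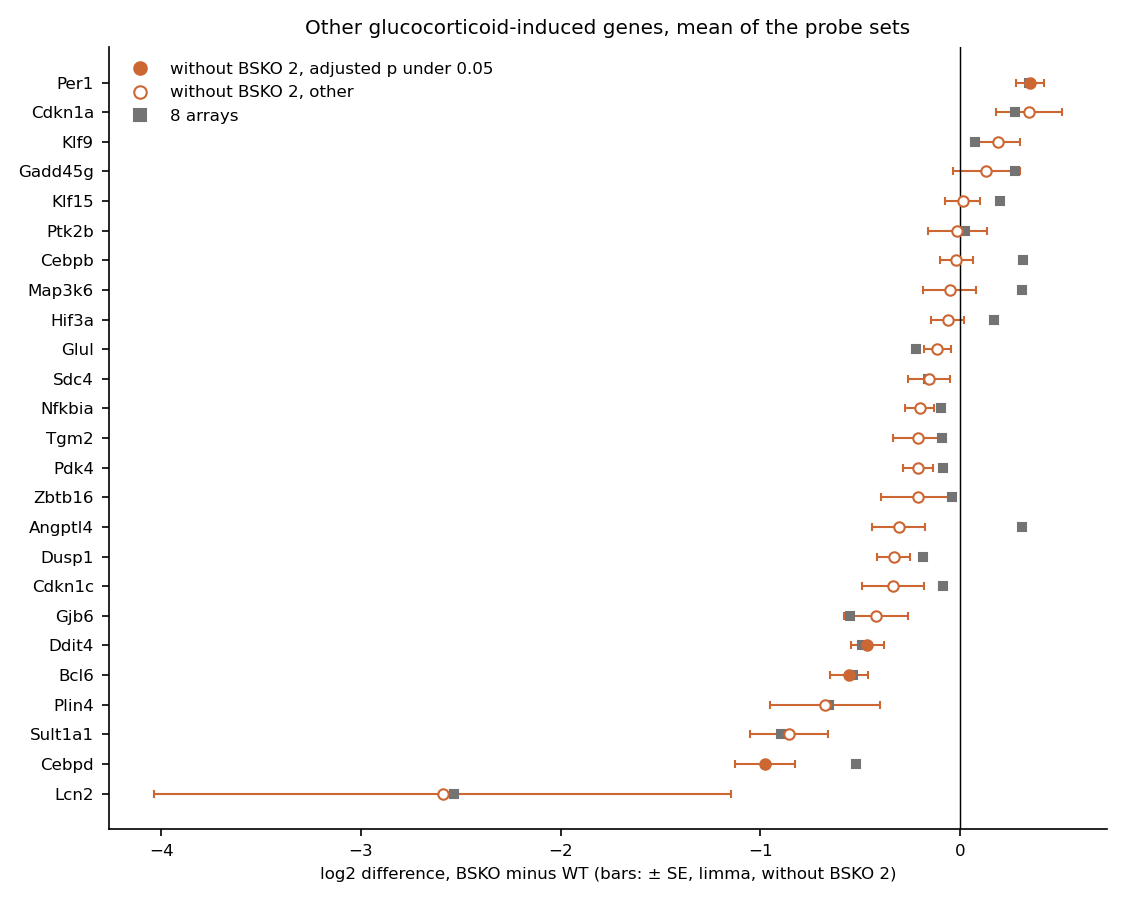
Log2 difference, BSKO minus WT (horizontal axis), of the 25 other glucocorticoid-induced genes, each the mean of its probe sets, without BSKO 2 (circles, with bars of ± SE from limma, filled where the adjusted p is under 0.05) and with 8 arrays (grey squares). Cebpd (-0.98), Bcl6 (-0.56), Ddit4 (-0.47) and Per1 (0.35) are the filled ones, and 20 of the 25 circles lie below 0.

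In the lists of receptor partners, hormone metabolism, CRH ligands and metal response no gene passed in either fit (limma adjusted p over all genes). Without BSKO 2 an unadjusted p under 0.05 was reached by 2 of 9 chaperone genes, 3 of 5 coregulators and 1 of 5 metabolism genes and by 0 of the CRH and metal response genes, beside 21.2% of all genes. With 8 arrays 1 coregulator reached it and no gene of the other lists here. Among 9 chaperones and co-chaperones of the receptor, 7 had a difference below 0 in each fit (median -0.19 with 8 arrays and -0.12 without BSKO 2). Of all genes 45.2% and 46.4% did. The HSP70 family gene Hspa8 differed by -0.19 in both fits and the HSP40 gene Dnajb1 by -0.17 and -0.18, each without overlap of the genotypes in either fit. Of all 12393 genes, 849 with 8 arrays and 1266 without BSKO 2 were lower without overlap. The adaptor gene Stip1 turned from 0.06 with 8 arrays to -0.16 without BSKO 2. Among 5 coregulators 4 lay above 0 in each fit, with a median of 0.05 with 8 arrays and 0.20 without BSKO 2. Of all 12393 genes, 6792 and 6639 lay above 0. The acetyltransferase gene Crebbp went from 0.11 to 0.23 and the coactivator gene Ncoa3 from 0.07 to 0.25 when BSKO 2 was left out, while Ppargc1a, the gene for PGC-1alpha, was at -0.21 and -0.25 (limma adjusted p = 0.0970 in the latter).

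Of 5 genes of glucocorticoid activation, inactivation and export, Hsd11b1, whose enzyme regenerates active glucocorticoid, differed by -0.23 with 8 arrays and -0.26 without BSKO 2, and H6pd, which supplies its cofactor, by 0.24 and 0.30. The export pump gene Abcb1b went from -0.68 to -0.17 when BSKO 2 was left out. The CRH family was measured by its urocortin genes Ucn (0.14 with 8 arrays and 0.07 without BSKO 2) and Ucn2 (0.29 and 0.23) only, as Crh, Crhbp and Ucn3 were not analysed here. Of 5 other metallothionein and metal response genes, the metal-responsive factor gene Mtf1 turned from -0.04 with 8 arrays to 0.23 without BSKO 2. Slc39a14, a zinc importer gene, went from 0.32 to 0.16 and Mt4 from -0.02 to -0.14.

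Among 12 lists of markers of other cells and brain regions, the list medians of 3 did not overlap between genotypes. All 7 meningeal and fibroblast genes were lower in BSKO without overlap, as were 6.85% of all genes with 8 arrays. Their list medians were 0.93, 0.78, 0.21 and 0.23 on WT 1 to 4 and -0.61, -0.49, -0.38 and -0.28 on BSKO 1 to 4. Of these genes 3 (Lum, Ogn and Aldh1a2) fell without BSKO 2 (limma adjusted p), where 1.39% of all genes were called lower. The medians of 10 astrocyte markers lay between 0.04 and 0.16 in WT and between -0.32 and 0.01 in BSKO, and those of 5 dentate gyrus markers between 0.01 and 0.77 and between -0.35 and -0.08. As means per gene, none of either list was called in either fit. For the dentate gyrus marker Tdo2, 1 of 2 probe sets was called without BSKO 2 (limma adjusted p = 0.0296), where 1.63% of all probe sets were called.

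The medians of the other 9 lists overlapped. The 6 striatal markers had medians of -1.98 to 0.04 in WT and 0.00 to 1.13 in BSKO. All 6 were higher in BSKO, with median log2 differences of 1.64 with 8 arrays and 1.83 without BSKO 2. The genotypes did not overlap for 3 with 8 arrays and 4 without BSKO 2. Of all 12393 genes, 793 and 1270 were higher in this way. None of the 6 was called in either fit. The 8 endothelial markers had medians of -0.03 to 0.10 in WT and -0.17 to 0.01 in BSKO. The choroid plexus median was -2.04 on BSKO 4 and -0.12 to 0.49 on the other arrays. Of the pituitary genes, Gh was at 2.04 and 2.34 and Prl at 2.06 and 2.07 on WT 3 and WT 4, and Pomc at 1.13 and 1.91 on BSKO 1 and BSKO 2. On WT 3 and WT 4, Tshb was at -0.16 and 0.05, Lhb at -0.01 and 0.01 and Cga at 0.51 and 0.20. Neurod1, a transcription factor gene listed here with the cerebellar markers, was the marker called with 8 arrays (log2 difference -1.31, limma adjusted p = 0.0495). It was also called without BSKO 2 (-1.38, adjusted p = 0.0125). Of the 7 cerebellar markers 5 lay below 0 and 2 above 0 in each fit, and no other was called. Those above 0 were Pcp2 (0.17 with 8 arrays and 0.13 without BSKO 2) and Car8 (0.18 and 0.19). Gh, Prl, Pomc, Neurod1 and the meningeal genes were picked out after their values were seen. The part of the cell types of these lists in the differences of Tsc22d3, Cebpd, Bcl6 and Ddit4 was not tested.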

How the data were processed

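Total RNA from 8 brains was hybridised to Affymetrix Mouse430A_2 arrays. The deposited values are log2 values made with RMA (submitters' processing notes, which name no version), and 22689 of 22690 probe sets have a median within 1e-05 of 0 over the 8 arrays. The values were thus centred per probe set, which the labels do not mention, so neither levels nor a filter on dim probe sets can be had from them. The number of arrays limits the precision, and the median SE over all probe sets was 0.163 with 8 arrays and 0.0982 without BSKO 2.

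Of these probe sets 64 are controls and were left out. The other 22626 entered a two-sided linear model of genotype without covariates (limma 3.58.1 under R 4.3.3, lmFit, then eBayes), with p-values adjusted by Benjamini-Hochberg over all of them and a threshold of 0.05. The model was fitted to all arrays and to those other than BSKO 2. The 12393 genes with a probe set of their own were also tested as means of their probe sets. The fit was tested on simulated data. Figures were drawn with matplotlib 3.10.9.

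All 18 probe sets were named. Of the other pathway genes those called in either fit were named, or otherwise up to 3 of a list with the smallest p without BSKO 2. Genes most alike were taken for the 3 probe sets with the smallest p without BSKO 2. The members and lists were chosen with earlier results of these data known. Other settings tried were a scaling by quantiles or by array medians, eBayes with trend and robust options, weighted arrays and the replicate number as a block. Further settings were a term setting replicates 1 and 2 apart from 3 and 4 and the removal of each array. Probe sets ending in _s_at, _x_at or _a_at were also removed, and a threshold of 0.10 and 1 value per gene were tried. Values within replicates 1 and 2 and within 3 and 4 were added after seeing the data. Motifs were searched with Python 3.11.15 in RefSeq windows (GRCm38.p6).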

Additional observations from a re-analysis of the deposited data

Results flagged for a closer look

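Among the 18 probe sets, each group of 4 arrays was checked for an array whose gap to its nearest neighbour took up more of the range of the group than Dixon's 95% critical value for 4 samples. Of 36 groups 3 had one, and chance gives about 1 in 20. On 1450462_at of Crhr2, WT 1 was at -0.39 while the other WT arrays lay between -0.03 and 0.01. On 1416129_at of Errfi1, BSKO 2 was at -0.63 while the other BSKO arrays lay between -0.04 and 0.00. On 1422557_s_at of Mt1, BSKO 3 was at -0.83 while the other BSKO arrays lay between -0.01 and 0.08.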

How the results depend on the processing

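Of the 18 probe sets 0 were called with 8 arrays (limma, 4 at an unadjusted p under 0.05). There were 3 after quantile normalization, 1 with trend and robust settings, 4 with array weights, 1 at a threshold of 0.10 and 0 to 2 with 1 array left out, all lower in BSKO. Over all probe sets the 7 calls became 678, 108, 2617 and 66 in those fits and 84 when a term set arrays numbered 1 and 2 apart from 3 and 4. With 1 array left out they were 0 to 369. Without BSKO 2 the 2 Tsc22d3 calls became 5 with array weights (4 lower and 1 higher, Nr3c1), 1 with 1 value per gene and 0 to 3 with a second array left out. They became 0 without probe sets ending in _s_at, _x_at or _a_at, which leaves no Tsc22d3 probe set. The 369 calls over all probe sets became 3005 with array weights, 744 with the term, 1131 at a threshold of 0.10 and 19 to 1069 with a second array left out. BSKO 2 had an array weight of 0.0456. The cause of these shifts was not tested.

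With the replicate number as a block no probe set was called, 0 of the 18 and 0 of all, in either fit, and the Tsc22d3 differences on 1420772_a_at were -0.80 (adjusted p = 0.292) and -0.73 without BSKO 2 (adjusted p = 0.140). Same-numbered arrays had correlations of 0.0562 to 0.14 between their deviations from the group means. WT and BSKO arrays of different numbers had 0.0307 to 0.165 where both were numbered 1 or 2 or both 3 or 4. Where 1 array was numbered 1 or 2 and the other 3 or 4, they had -0.147 to -0.0374. The deviations thus differed between replicates 1 and 2 and replicates 3 and 4 in both genotypes. The main model holds no term for this, and the fits with that term are given above. The numbers were not taken as pairs. As means per gene, 120 of 134 alternatives kept direction and side of the threshold, and 4 passed it. These were Tsc22d3 after quantile normalization, with array weights and without BSKO 2, and Sgk1 with array weights. Over all 22626 probe sets, quantile normalization called 678, array weights 2617 and the fit without BSKO 2 369. Of the 134 alternatives 10 changed sign, none called. In these Nr3c1 went to -0.02 without BSKO 1, -0.12 without BSKO 3 and -0.01 without BSKO 4 (range with 1 array left out -0.12 to 0.23, the highest without BSKO 2). Crhr1 went to 0.0323 and Crhr2 to -0.0319 with array weights. Mt1 went to 0.0852 with array weights and to 0.0511 without probe sets ending in _s_at, _x_at or _a_at. It went to 0.03 without WT 1, 0.01 without BSKO 1 and 0.17 without BSKO 3. Centred values hold no signal over background, so dim probe sets could not be set apart.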

Other observations

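Of the other glucocorticoid-induced genes, 3 that did not pass were picked out after their values were seen, because WT 1 and WT 2 stood apart from WT 3 and WT 4. Lcn2, which encodes the iron-siderophore carrier lipocalin 2, stood at 5.14 and 5.15 on the first pair, at -0.32 and 0.01 on the second, and at -0.15 to 0.13 on the BSKO arrays. Plin4, a lipid droplet protein gene, gave 1.08 and 1.07, then 0.14 and 0.03, and -0.15 to -0.03 in BSKO. Sult1a1, a phenol sulfotransferase gene, had 0.91 and 0.85, then 0.20 and 0.24, and -0.49 to -0.20 in BSKO. The meningeal marker medians on the same 4 WT arrays were 0.93, 0.78, 0.21 and 0.23, and their part in these values was not tested.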
